A study of Mus musculus with 2 samples.

Results

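Accessible sites in protein-coding exons away from promoters were taken from DNase-seq of mouse kidney. A coding-exon peak was a peak of the longer, looser peak list of replicate 1 that overlapped a peak of replicate 2, had its midpoint in coding sequence (CDS) of GENCODE M21 basic, and lay more than 2.5 kb from every transcription start site (TSS) of that annotation. There were 1909 such peaks among 109888 shared peaks, or 1.74% (exact 95% binomial interval 1.66 to 1.82, counting error only). They were 2.70% of the 70671 shared peaks more than 2.5 kb from a TSS, of which 38175 had their midpoint in an intron, 28520 between genes and 2067 in exon sequence that is not coding.

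The study cut chromatin of whole kidney with DNase I and sequenced the cut ends. Both libraries came from male B6CASTF1/J mice aged 25 days, a first-generation cross between the strains C57BL/6J and CAST/EiJ, and form 1 group with no other condition. The labels give the libraries separate biosamples and animal numbers but 1 donor code. Whole kidney mixes tubule, vessel, stromal and glomerular cells, so fewer cells with an open site and less opening per cell cannot be told apart. Of 12 genes that mark kidney, 10 had a promoter peak in both libraries (Aqp2 and Nphs1 did not), against 1 of 8 genes that mark other organs (Ins2). With 1 group of 2 libraries no condition could be compared and no test was run, and values are given per library.

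Exons carry the protein code, and a stretch of coding sequence can also hold sites where proteins bind DNA. A peak of DNase-seq marks chromatin that the enzyme cuts readily, and a footprint is a short run of bases inside it that is cut less than its surroundings, as bound proteins can leave. CTCF, a zinc finger protein known for anchoring chromatin loops, is one of the factors that leave clear footprints in many tissues.

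The peaks below are the 8 with the highest mean log2 height over both libraries. They are shown because the highest sites let the coding sequence and the protected bases be read side by side. The letters are the mm10 reference, which is a C57BL/6J sequence, on the coding strand of the host gene, and capitals mark bases that lay in footprints of both libraries.
Sptbn4, chr7:27361481-27361660, minus strand: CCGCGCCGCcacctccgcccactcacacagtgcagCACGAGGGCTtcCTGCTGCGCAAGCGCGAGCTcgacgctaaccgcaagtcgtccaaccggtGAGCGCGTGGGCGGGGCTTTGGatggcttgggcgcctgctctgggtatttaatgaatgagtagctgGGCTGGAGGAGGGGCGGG
Spi1, chr2:91115161-91115320, plus strand: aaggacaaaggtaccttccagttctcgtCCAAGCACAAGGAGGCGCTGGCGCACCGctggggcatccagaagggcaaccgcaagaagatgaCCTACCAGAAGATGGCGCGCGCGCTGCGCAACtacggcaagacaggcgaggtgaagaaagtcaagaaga
Ankrd24, chr10:81643621-81643860, plus strand: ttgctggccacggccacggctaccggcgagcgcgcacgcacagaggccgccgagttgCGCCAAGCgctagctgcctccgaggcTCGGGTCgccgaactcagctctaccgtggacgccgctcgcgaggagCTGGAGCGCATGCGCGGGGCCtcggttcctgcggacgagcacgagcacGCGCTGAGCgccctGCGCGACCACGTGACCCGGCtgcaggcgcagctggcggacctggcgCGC
Rsad1, chr11:94544061-94544220, minus strand: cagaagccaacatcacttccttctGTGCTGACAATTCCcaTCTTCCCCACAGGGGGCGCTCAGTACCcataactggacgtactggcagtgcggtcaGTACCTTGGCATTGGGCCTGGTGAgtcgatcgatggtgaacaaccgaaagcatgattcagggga
Scnn1a, chr6:125331081-125331260, plus strand: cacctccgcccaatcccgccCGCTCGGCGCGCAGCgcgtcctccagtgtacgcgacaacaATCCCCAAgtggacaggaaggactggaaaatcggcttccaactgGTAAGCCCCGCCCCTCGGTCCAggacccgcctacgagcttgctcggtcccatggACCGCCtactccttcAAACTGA
Zfp771, chr7:127254061-127254340, plus strand: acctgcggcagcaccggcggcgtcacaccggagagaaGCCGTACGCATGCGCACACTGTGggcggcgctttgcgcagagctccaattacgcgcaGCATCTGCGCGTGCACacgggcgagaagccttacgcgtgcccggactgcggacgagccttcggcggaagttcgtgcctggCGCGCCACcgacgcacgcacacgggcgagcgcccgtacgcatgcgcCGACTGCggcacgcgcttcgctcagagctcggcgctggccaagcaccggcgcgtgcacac
Mboat4, chr8:34124021-34124160, plus strand: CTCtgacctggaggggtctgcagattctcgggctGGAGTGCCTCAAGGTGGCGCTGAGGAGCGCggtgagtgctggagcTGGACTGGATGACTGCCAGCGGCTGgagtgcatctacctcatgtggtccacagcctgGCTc
Synpo2l, chr14:20661061-20661240, minus strand: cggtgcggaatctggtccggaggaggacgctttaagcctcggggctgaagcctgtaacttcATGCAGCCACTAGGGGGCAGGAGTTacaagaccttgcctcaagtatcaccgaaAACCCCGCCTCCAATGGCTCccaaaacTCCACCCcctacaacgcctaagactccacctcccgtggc

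Sptbn4, which encodes a spectrin that lines the axon initial segment, held the highest coding-exon peak, with heights of 23 in replicate 1 and 26.9 in replicate 2. The height is the authors' signal for each peak. That peak crossed the 3' edge of coding exon 32 of 35, so that 52.2% of it was CDS, and it held 5 and 4 footprints (here and below, replicate 1 before replicate 2). Spi1, the gene of the myeloid and B cell transcription factor PU.1, had 17.6 and 22.4, wholly inside its last coding exon. It was 1 of the 286 host genes without a promoter peak shared by the libraries.

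Scnn1a encodes the alpha subunit of the epithelial sodium channel of the collecting duct. Its peak in coding exon 2 of 12 lay 9.65 kb from a TSS and had heights of 10.7 and 13.2, against 1.80 and 2.03 for the highest peak at its promoter. Mboat4, which encodes the enzyme that acylates ghrelin, had 10.4 and 12.9 in its last coding exon and no promoter peak. Rsad1, a gene of the radical SAM family, had 8.67 and 18.2, the widest gap between the libraries among these peaks (a log2 ratio, replicate 2 over replicate 1, of 1.07).

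Ankrd24, which encodes an ankyrin repeat protein, had 16.4 and 11.2. Its peak lay 62 bp from a start of the comprehensive GENCODE M21 annotation, although 5.32 kb from any start of the basic one. Zfp771, a zinc finger gene, had 13.7 and 10.2 inside a last exon that codes for the repeated zinc fingers. Synpo2l, the gene of an actin-associated muscle protein, had 8.88 and 14.5. The ranking was completed by Hook2, which encodes a microtubule adaptor, with 9.63 and 11.8, and Soga1 with 9.0 and 10.8. The Hook2 peak lay 420 bp from a start of the comprehensive annotation. Each of the 10 was in the stricter peak list of both libraries.

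Most coding-exon peaks were far lower than these. The lowest, the median and the highest were 0.179, 0.872 and 23 in replicate 1 and 0.149, 0.989 and 26.9 in replicate 2. The quartiles were 0.556 and 1.73 in replicate 1 and 0.581 and 1.97 in replicate 2. The mean of the library medians was 0.930 ± 0.0826 (SD, n = 2) for coding-exon peaks, against 0.961 ± 0.151 for intron peaks and 0.929 ± 0.154 for intergenic peaks. These SDs also hold any difference of scale between the libraries. Within the libraries the order differed. The medians of coding-exon, intron and intergenic peaks were 0.872, 0.855 and 0.820 in replicate 1 and 0.989, 1.07 and 1.04 in replicate 2. Peaks in exon sequence that is not coding were higher, with medians of 1.04 and 1.29 and a mean of 1.17 ± 0.176. The lowest coding-exon peaks by mean height were in Kprp (0.265 and 0.154), Thsd7a (0.179 and 0.199) and Pola1 (0.231 and 0.149), and none of these held a footprint.

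Of the replicate 1 peaks with a midpoint in CDS more than 2.5 kb from a TSS, 83.2% (81.6 to 84.7) were overlapped by replicate 2, against 88.5% of intron peaks and 82.4% of intergenic peaks. The 386 without a partner are not counted among the coding-exon peaks, and their median height was 0.359. The stricter list of both libraries held 62.1% (59.9 to 64.3) of the coding-exon peaks, 62.4% of the intron peaks and 65.9% of the intergenic peaks. Over all shared peaks more than 2.5 kb from a TSS the share was 64.0%.

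**Figure D1:**
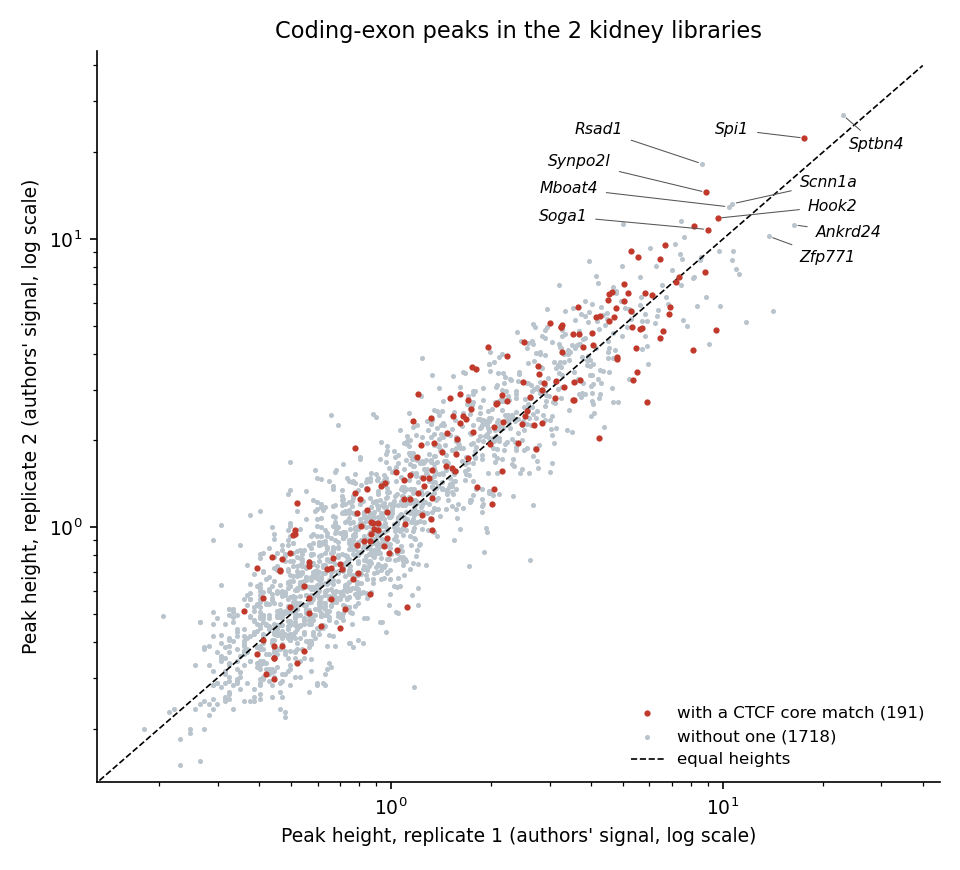
Height of each of the 1909 coding-exon peaks in replicate 1 (x axis) and replicate 2 (y axis), both the authors' signal on log scales. Points with a CTCF core match in the 150 bp at the midpoint are red and the dashed line marks equal heights; the named peaks are the 10 highest, from Sptbn4 at 23 and 26.9 to Soga1 at 9.0 and 10.8.

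Heights were alike in the libraries, as the plot of both heights shows. Across the 1909 peaks, which come from the same pair of libraries and are not replicates, Spearman's rho was 0.906 and Pearson's r of log2 heights 0.921. Coding-exon peaks had a median log2 ratio, replicate 2 over replicate 1, of 0.09 with an SD of 0.48 over peaks, against 0.26 for intron peaks and 0.26 for intergenic peaks. This ratio moved with base composition. In the quartile of windows richest in GC, over 56.7%, it was -0.04 for coding-exon peaks, 0.09 for intron peaks and 0.06 for intergenic peaks, while in the poorest quartile it was 0.40, 0.42 and 0.42 in the same order. The richest quartile held 54.8% of the coding-exon peaks, 21.4% of the intron peaks and 19.8% of the intergenic peaks. In the quartiles between, the ratios were 0.28, 0.32 and 0.30, then 0.25, 0.23 and 0.22, for coding-exon, intron and intergenic peaks, from poorer to richer in GC.

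Among the peaks most unequal between the libraries, Selenbp2, a gene with a close copy, Selenbp1, had 0.658 in replicate 1 and 2.45 in replicate 2. No source used here says how reads that map to both copies were treated. Myo6, which encodes an unconventional myosin, had 0.496 and 1.68. Atp13a4, Cenpf and Rbpms followed, with log2 ratios from 1.64 to 1.72. In the other direction Kcnk15, a potassium channel gene, had 1.17 in replicate 1 and 0.278 in replicate 2 in a window of 74.0% GC. Arhgef18, the gene of a RhoA exchange factor, had 2.62 and 0.770, and Ppp1r18 had 14.1 and 5.64. Gdf6 and Gsdme had log2 ratios of -1.23 and -1.22.

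Footprints were about as frequent in coding-exon peaks as in intron and intergenic peaks, and less frequent than in peaks of exon sequence that is not coding. At least 1 was present in 79.6% of the coding-exon peaks in replicate 1 and 92.5% in replicate 2, against 79.7% and 94.2% of the intron peaks and 78.8% and 93.5% of the intergenic peaks. Footprints of both libraries were present in 76.4% (74.5 to 78.3) of coding-exon peaks, against 82.1% (80.4 to 83.8) of peaks in exon sequence that is not coding and 77.1% of all shared peaks more than 2.5 kb from a TSS. No footprint of either library was found in 84 of the coding-exon peaks (4.40%), against 3.70% of all shared peaks more than 2.5 kb from a TSS. The number per peak averaged 1.66 and 2.63, and 74.3% of the 3160 footprints of replicate 1 overlapped one of the 5015 of replicate 2.

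The share rose with height. From the lowest to the highest quartile by replicate 1 height, 44.5%, 80.5%, 91.3% and 98.4% of the coding-exon peaks had a footprint in replicate 1. In replicate 2 the shares were 78.6%, 92.1%, 97.7% and 100%. In the lowest quartile, intron peaks had 46.4% in replicate 1 and 83.6% in replicate 2. The step in which low heights rise was 1.72 times as large in replicate 1 as in replicate 2, and the part of depth in the footprint shares was not tested.

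**Figure D2:**
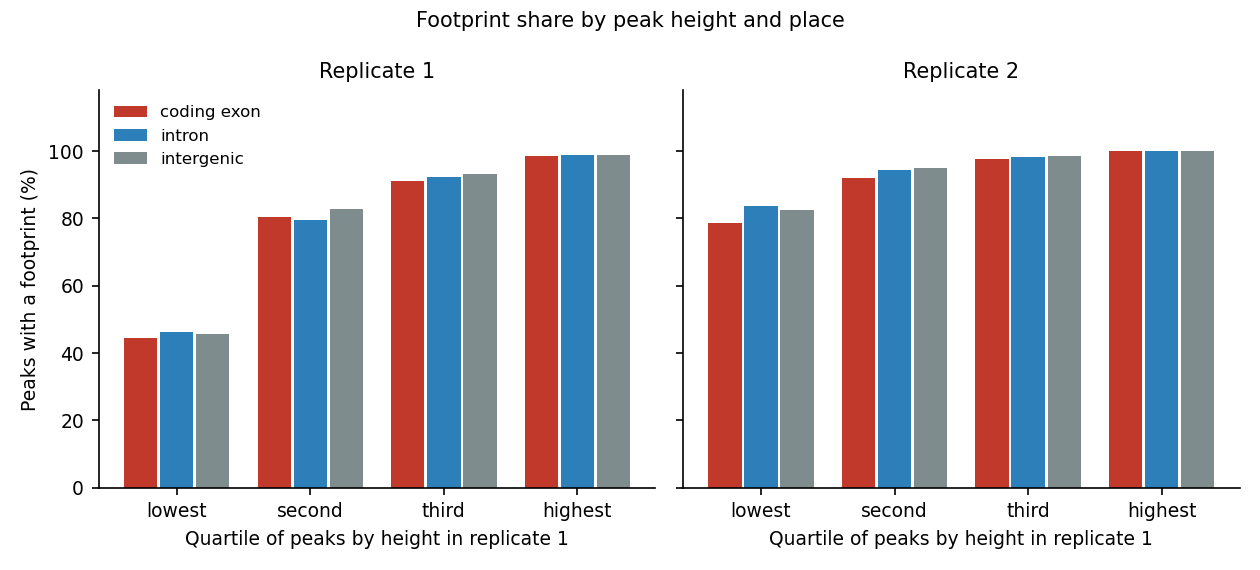
Share of peaks with at least 1 footprint (y axis, percent) in replicate 1 (left) and replicate 2 (right), for coding-exon, intron and intergenic peaks in quartiles of all shared peaks more than 2.5 kb from a TSS by replicate 1 height. Bars of the 3 classes stand close together in each quartile and rise with height, from 44.5% to 98.4% for coding-exon peaks in replicate 1.

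Within the coding-exon peaks, footprints covered a larger share of the coding part than of the flanks. They covered 12.82% of the CDS bases in replicate 1 and 24.4% in replicate 2, against 7.46% and 20.9% of the flanking bases that are not CDS. The flank is the outer part of a peak by construction, since the midpoint is coding. Over the whole peaks 11.7% and 23.6% of the bases were in footprints, against 12.1% and 26.7% in intron peaks. Judged by the part inside the peak, 81.3% and 75.8% of the footprints lay wholly in CDS. That is read beside the make-up of the peaks, with 264092 CDS bases and 73080 flanking bases. The median widths of the whole footprints were 10 and 13 bp.

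The peaks with the most footprints were wide. Crybg2, a gene of the crystallin-like family, held 8 and 10 footprints in a peak of 540 bp. Atn1, which encodes the transcriptional corepressor atrophin-1, held 6 and 10 in 380 bp, and Fbxl22, which encodes an F-box protein, held 7 and 9 in 280 bp. Fmnl1, the gene of a formin, held 7 and 9 in 360 bp, and Pde4dip, which encodes myomegalin, held 6 and 8 in 320 bp. Tchh held 11 in replicate 1 and 4 in replicate 2. The peaks of Crybg2 and Atn1 lay 241 and 66 bp from a start of the comprehensive annotation.

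The label of the peaks was checked against their overlap with CDS. At least 50% of the width was CDS in 92.9% (91.7 to 94.0) of them, and 664 peaks (34.8%) were coding throughout. Their median width was 180 bp, against 173 bp for intron and 172 bp for intergenic peaks, while the coding part of the host exon had a median of 193 bp. Both edges of the host exon lay inside 366 peaks, the 3' edge alone inside 495, the 5' edge alone inside 386, and neither inside 662. The distance to the nearest TSS was 10.9 kb at the median, with quartiles of 5.38 and 23.5 kb. Other annotations placed starts nearer: 641 peaks (33.6%) lay within 2.5 kb of a start of the comprehensive annotation, and 299 of these within 500 bp. With RefSeq starts the number within 2.5 kb was 160. The 641 peaks had median heights of 0.991 and 1.06, against 0.829 and 0.944 for the others.

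The last peaks to pass the distance rule were in Sertad3, 2503 bp from a TSS with heights of 1.56 and 1.88, in Tnrc18 at 2511 bp (1.05 and 0.989) and in Tob1 at 2518 bp (0.410 and 0.815). The first to fail it were in Eif2d at 2500 bp (1.64 and 0.854), Fzd8 at 2498 bp (0.684 and 0.611) and Pml at 2492 bp (4.03 and 5.27). Heights on both sides of the limit fell within the range of the coding-exon peaks.

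Coding sequence carried more peaks per base than other sequence at the same distance from promoters. There were 72.8 coding-exon peaks per Mb of CDS more than 2.5 kb from a TSS (26.2 Mb), against 56.7 per Mb of other exon sequence, 38.4 per Mb of intron and 21.6 per Mb of intergenic sequence. The coding-exon peaks were also richer in GC, with a median of 58.0% in 150 bp at the midpoint, against 52.7% in intron peaks, 52.0% in intergenic peaks and 52.0% in 87381 CDS windows outside peaks. CpG dinucleotides were observed at 0.409 of the rate expected from base content in coding-exon peaks, against 0.220 in intron and 0.234 in intergenic peaks, and 0.355 in the CDS windows outside peaks. The part of base composition in the density was not tested.

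First and last coding exons held more peaks per base than internal ones. There were 85 peaks in first coding exons, 417 in last, 1360 in internal and 47 in single coding exons. The densities were 110 per Mb in first and 94.3 per Mb in last coding exons, against 66.4 per Mb in internal and 65.5 per Mb in single ones. Last coding exons held 21.8% (20.01 to 23.8) of all the coding-exon peaks. Of the 1880 peaks counted in the densities they held 21.2%, against 16.3% of the eligible bases. Peaks in last coding exons had median heights of 1.08 and 1.13 and a CpG ratio of 0.524, against 0.833, 0.959 and 0.374 in internal exons. The densities count only the 1880 peaks whose host transcript has the longest CDS of its gene.

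Density also varied with the length of the exon and the place in it. It was 56.7 per Mb in exons with up to 150 coding bp, 84.1 over 150 and up to 300 bp, 110 over 300 and up to 600 bp, 80.5 over 600 and up to 1000 bp and 63.1 beyond 1000 bp. Along the CDS it was 70.1, 66.2, 63.2, 74.2 and 85.6 per Mb from the first quintile to the last. Within exons the outer quintiles held fewer midpoints, 15.1% of the peaks at the 5' end and 17.6% at the 3' end, against 22.0%, 22.7% and 22.6% in the quintiles between them.

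**Figure D3:**
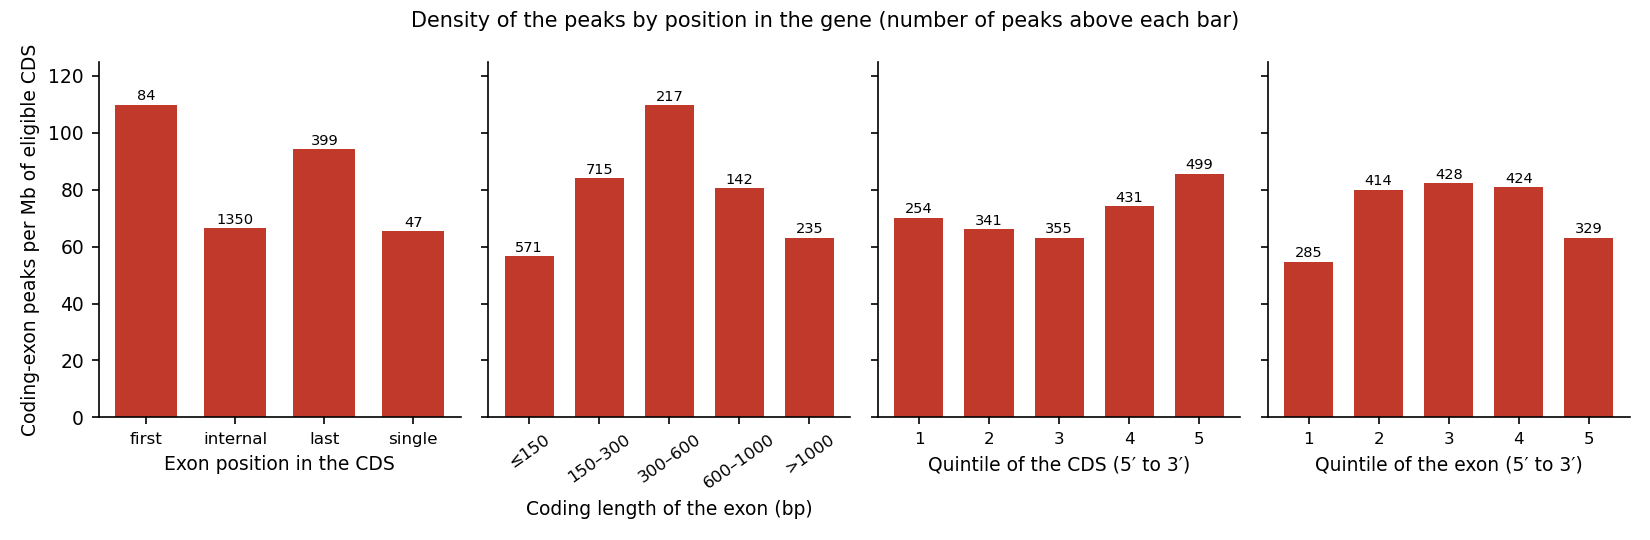
Coding-exon peaks per Mb of CDS more than 2.5 kb from a TSS (y axis, from 0). The x axes give exon position in the CDS, coding length of the exon, quintile of the CDS and quintile of the exon. The number above each bar counts only peaks whose host transcript has the longest CDS of its gene. The bars reach 110 per Mb in first coding exons and in exons of over 300 and up to 600 bp, and 85.6 per Mb in the last quintile of the CDS.

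Chromosomes differed in density. Among the autosomes it ran from 51.0 per Mb on chromosome 12 to 95.2 per Mb on chromosome 8. The X chromosome, present once in these males, held 19 coding-exon peaks, or 19.7 per Mb, against 75.1 per Mb on the autosomes together. The intron peaks showed a like order, with 14.1 per Mb on the X chromosome and 39.7 on the autosomes. The 19 peaks had median heights of 0.487 and 0.472, below the median of each autosome in both libraries.

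The 1909 peaks lay in 1643 genes. Of 17294 protein-coding genes with CDS more than 2.5 kb from a TSS, 1642, or 9.49%, held at least 1. A single peak was found in 1433 genes, 2 in 166, 3 in 37, 4 in 4, 5 in 1 and 6 in 2. The 210 genes with 2 or more were 1.21% of the genes that could hold one, and they held 24.9% of the peaks. Hosts had more eligible CDS: the median was 4.03 kb in genes with 3 or more peaks, 2.62 kb with 2 and 1.77 kb with 1, against 1.01 kb with none. By quintile of eligible CDS, from short to long, 2.60%, 5.14%, 7.76%, 11.6% and 20.4% of the genes held a peak. Of neighbouring peaks within a gene, 70 of 266 pairs (26.3%) shared an exon, and the median distance was 4.63 kb.

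A promoter peak in both libraries, within 500 bp of a TSS of the gene, was present in 82.6% (80.7 to 84.4) of the host genes, against 72.4% (71.7 to 73.1) of the eligible genes with no coding-exon peak and 73.4% of all eligible genes. In 448 hosts the coding-exon peaks were the only shared peaks more than 2.5 kb from a TSS in the gene body. In 749 (45.6%) the highest such peak in replicate 1 was a coding one. The 749 include the 448, in which no other peak could be the highest. Peaks in hosts with a promoter peak had median heights of 0.885 and 0.999, against 0.838 and 0.894 in hosts without one.

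The genes with 5 or 6 coding-exon peaks were very long ones, with 14.6 kb of eligible CDS in Sspo, 25.6 kb in Syne1 and 21.8 kb in Dst. Sspo, which encodes the giant secreted protein SCO-spondin, held 6 peaks in 6 of its 103 coding exons. Their heights ran from 0.410 to 1.63 in replicate 1 and from 0.338 to 1.85 in replicate 2, and Sspo had no promoter peak. The Sspo peaks in coding exons 79, 80 and 90 lay 54, 402 and 419 bp from a start of the comprehensive annotation. Syne1, the gene of the nuclear envelope protein nesprin-1, also held 6, spread over 217 kb, from 0.308 to 0.846 and from 0.537 to 1.15. The Syne1 peak that was highest in replicate 1 lay 206 bp from a start of both the comprehensive annotation and RefSeq. Dst, the gene of the cytoskeletal linker dystonin, held 5, of which that in coding exon 56 of 103 was the highest (4.07 and 4.30).

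Pdzd2, a gene of a protein with many PDZ domains, had 3 of its 4 peaks in 1 exon of 3934 coding bp, the highest at 5.12 and 4.93. Tchh, which encodes the hair follicle protein trichohyalin, had 4 within 1.86 kb in its last exon, and Pcdh17, a protocadherin gene, had 4 within 1.89 kb in its first coding exon. The trichohyalin exon is largely made of repeats, and no source used here says how reads that map to several repeats were treated. The highest peak of Pcdh17 had 2.18 and 2.22, and its promoter 10.7 and 9.60. Fbn2, the gene of the microfibril protein fibrillin-2, held 4 low peaks, from 0.316 to 1.02 and from 0.258 to 1.01.

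Among the 37 genes with 3 peaks, the 5 with the highest summed heights in replicate 1 were Sptbn4, Mgat1, Zfp503, Rreb1 and Cand2. Mgat1 encodes the enzyme that starts complex N-glycans, and its coding sequence lies in 1 exon of 1341 bp that held all 3 peaks. Their heights were 7.02 and 7.82, then 0.914 and 1.34, then 2.07 and 3.06, from 5' to 3'. Zfp503, a zinc finger repressor gene, had 5.72 and 5.19 at its highest, Rreb1, a zinc finger gene of the RAS pathway, 7.63 and 10.1, and Cand2, a gene of a cullin-associated protein, 3.20 and 6.95. The Rreb1 peak lay 65 bp from a start of the comprehensive annotation. Besides its highest peak Sptbn4 held others of 2.67 and 1.19 in coding exon 13 and of 0.966 and 0.432 in coding exon 27.

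**Figure D4:**
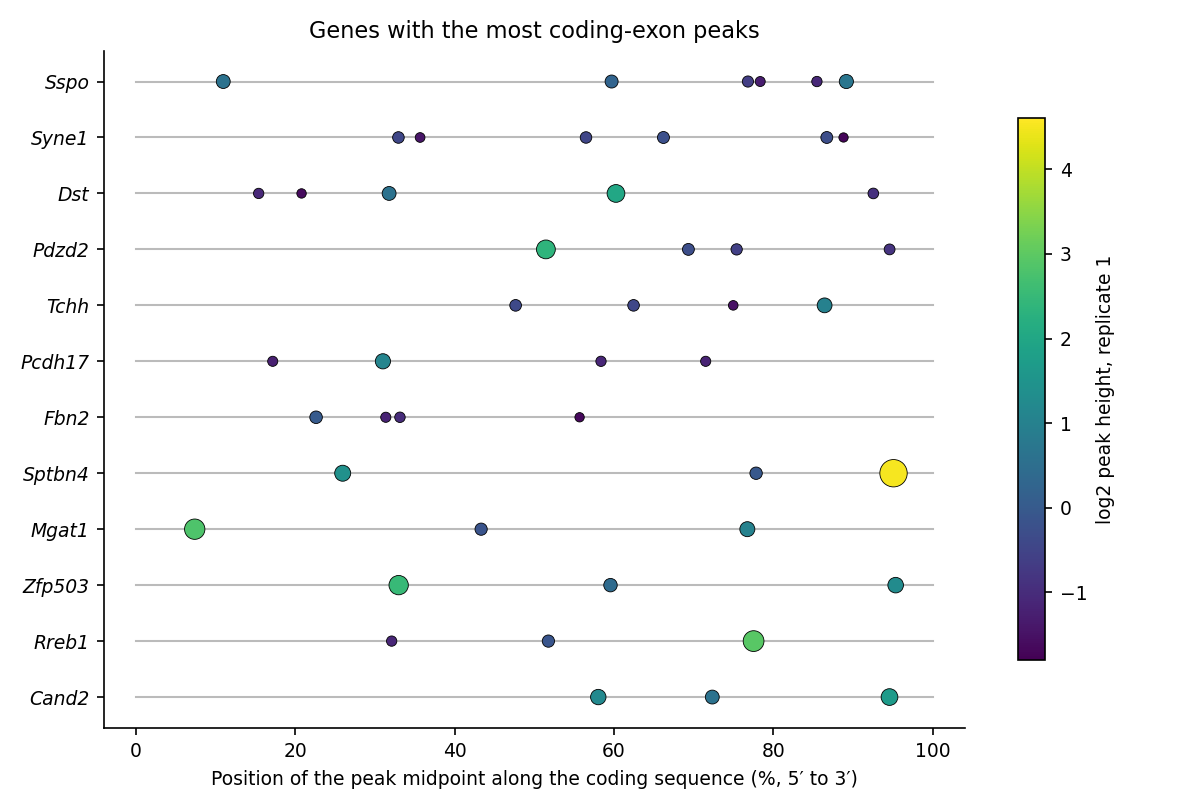
Midpoints of the coding-exon peaks along the CDS (x axis, percent from 5' to 3') of the 12 genes with the most of them, 1 gene per line; larger and lighter points are higher in replicate 1 (log2 scale). In each of the 12 lines at least 1 peak lies beyond the middle of the CDS, and Sptbn4, Rreb1, Mgat1, Zfp503 and Pdzd2 each have 1 above 5.

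The highest peaks of genes with several are shown as above, with capitals for bases in footprints of both libraries. They were chosen because each holds at least 1 long protected run inside an exon. The Dst peak crosses the 3' edge of its exon, and 85.0% of it is CDS.
Pdzd2, chr15:12375641-12375820, minus strand: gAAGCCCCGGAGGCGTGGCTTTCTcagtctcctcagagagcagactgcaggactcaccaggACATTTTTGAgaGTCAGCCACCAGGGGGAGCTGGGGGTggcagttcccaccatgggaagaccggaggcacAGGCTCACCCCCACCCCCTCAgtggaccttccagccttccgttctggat
Dst, chr1:34218441-34218600, plus strand: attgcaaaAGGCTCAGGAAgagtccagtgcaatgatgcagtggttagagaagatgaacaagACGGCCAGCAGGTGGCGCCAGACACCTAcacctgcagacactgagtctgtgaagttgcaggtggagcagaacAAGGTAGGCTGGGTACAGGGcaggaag
Mgat1, chr11:49260701-49260880, plus strand: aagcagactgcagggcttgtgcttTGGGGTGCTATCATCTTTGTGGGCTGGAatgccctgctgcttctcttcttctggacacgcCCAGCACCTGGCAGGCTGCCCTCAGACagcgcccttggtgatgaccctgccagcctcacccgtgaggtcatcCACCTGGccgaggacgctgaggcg
Rreb1, chr13:37946861-37947040, plus strand: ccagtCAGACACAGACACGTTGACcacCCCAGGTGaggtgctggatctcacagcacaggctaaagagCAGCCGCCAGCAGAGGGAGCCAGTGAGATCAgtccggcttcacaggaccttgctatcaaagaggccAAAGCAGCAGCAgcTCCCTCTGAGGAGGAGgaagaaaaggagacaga

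Lists of genes of kidney cells were small, and the share of each that held a coding-exon peak is read beside the 9.49% of all eligible genes. Among collecting duct genes 4 of 17 held one. Besides Scnn1a these were Atp6v1b1, a proton pump subunit gene (2.31 and 2.42), Scnn1b, another sodium channel subunit gene (1.96 and 1.54), and Aqp2, the gene of the vasopressin-regulated water channel (1.25 and 1.13). The Scnn1b peak lay 303 bp from a start of the comprehensive annotation. Aqp2 had its coding-exon peak in the last of 4 coding exons, and no promoter peak. Among loop of Henle and distal tubule genes it was 3 of 19. Slc12a3, which encodes the thiazide-sensitive sodium chloride cotransporter, held 3 peaks (1.09 and 1.96, 0.795 and 0.859, 1.21 and 0.869, from 5' to 3'), and the magnesium channel gene Trpm6 held 1 (1.18 and 1.15).

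Proximal tubule genes held peaks in 3 of 29 cases, near the background. These were the organic anion transporter genes Slc22a6 (0.615 and 1.20) and Slc22a8 (0.966 and 0.859) and the sodium proton exchanger gene Slc9a3 (0.735 and 0.561). The Slc22a6 peak lay 79 bp from a RefSeq start. Podocyte and basement membrane genes held them in 4 of 19. Synpo, the gene of the podocyte actin protein synaptopodin, had 9.08 and 4.33, while the laminin gene Lama5 had 1.40 and 1.85. Polycystic and cilium genes had 4 of 15, with Pkhd1 (1.02 and 0.999), Pkd1 (0.838 and 0.999) and Pkd2 (0.624 and 0.447), which encode fibrocystin and the polycystins. Kidney transcription factor genes had 3 of 22, including Sim2 (1.36 and 1.77) and Pax8 (0.709 and 1.12), and Hox genes had 0 of 7. The Pax8 peak lay 56 bp from a start of the comprehensive annotation.

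Endothelial genes held them in 4 of 14. Vwf, the gene of von Willebrand factor, had 5.82 and 5.47 in coding exon 13 of 51, at 119 bp from a start of the comprehensive annotation. Plvap, which encodes the protein of fenestral diaphragms, had 2.74 and 3.06. Tek, the angiopoietin receptor gene, held 3 low peaks, the highest at 0.726 and 1.04. Among stromal and smooth muscle genes 1 of 14 held any: Notch3, the receptor gene of mural cells, with 5.28 and 5.26 in coding exon 24 of 33 and 3.47 and 4.04 in the last.

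In lists of genes with long coding sequences the share of genes with a peak was above that of all eligible genes, while the number of peaks per Mb of eligible CDS was below it. Giant cytoskeletal and adhesion protein genes held peaks in 13 of 31 cases, with 26 peaks. Besides Dst and Syne1 they included the atypical cadherin gene Fat2 (2.65 and 4.41), the nesprin-2 gene Syne2 (1.32 and 3.37 at its highest) and Macf1 (1.73 and 2.47 at its highest). Chromatin regulator genes had 6 of 20, led by the histone methyltransferase genes Kmt2a (4.09 and 2.49) and Kmt2c (1.07 and 1.23). Collagen genes had 4 of 23, with Col15a1 (1.39 and 2.03), Col16a1 (1.19 and 1.54) and Col4a3 (0.872 and 0.750). Per Mb of eligible CDS there were 53.9 peaks in the giant protein genes, 50.4 in the chromatin regulators and 34.8 in the collagens, against 72.8 over all eligible CDS. The densities were 190 in the endothelial, 171 in the collecting duct and 152 in the loop of Henle and distal tubule genes, from 7, 4 and 5 peaks. Kidney transcription factor genes had 115 per Mb, from 3 peaks. Densities below 72.8 were found in polycystic and cilium genes (58.1) and in podocyte and basement membrane genes (52.6), from 4 peaks each. They were also found in proximal tubule genes (49.3, from 3 peaks) and in stromal and smooth muscle genes (39.3, from 2).

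Short sequence motifs were sought in the 150 bp window at each midpoint, on both strands. A match is a run of letters and not a shown binding site. A single CTCF core pattern was searched, with some positions left free, and matches to it are printed in capitals after its values. It was present in 191 coding-exon peaks, or 10.01% (8.70 to 11.4), against 12.4% of intron and 15.1% of intergenic peaks and 13.4% of all shared peaks more than 2.5 kb from a TSS. In the CDS windows outside peaks it was present in 1.03%. The lower share in coding-exon peaks was not seen in every class of base composition: in the quartile richest in GC it was 8.79% (7.14 to 10.7), against 8.41% of intron and 9.96% of intergenic peaks, and in the poorest 11.9% (7.60 to 17.4), against 17.8% and 20.5%.

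Peaks with the core were higher. Their median heights were 1.62 and 2.02, against 0.838 and 0.929 for coding-exon peaks without it, and 92.7% of them had footprints of both libraries, against 74.6%. The other classes showed a like order. Intron peaks with the core had medians of 1.45 and 1.95, against 0.855 and 1.07 for all intron peaks. Intergenic peaks with the core had 1.57 and 2.09, against 0.820 and 1.04 for all intergenic peaks. The core was present in 33 of the 100 highest coding-exon peaks, and in 24, 28, 48 and 91 peaks from the lowest to the highest quartile of coding-exon peaks by replicate 1 height. Of the 193 matches, 149 (77.2%, 70.6 to 82.9) lay under footprints of both libraries, against 81.2% in intron and 82.0% in intergenic peaks. A match was counted as under a footprint if at least 1 of its bases lay in one. By the same count the shares in coding-exon peaks were 18.2% for the E-box, 29.5% for SP/KLF and 64.0% for NRF1, motifs described below. These shares are not matched for the length of the pattern or the height of the peaks. A longer pattern has more bases that can meet a footprint. Peaks with the E-box had median heights of 0.846 and 0.929, those with SP/KLF 1.05 and 1.09, and those with NRF1 2.38 and 1.54. Counted by single bases, which is another measure, footprints of both libraries covered 9.80% of the windows of the coding-exon peaks. The CTCF matches sat close to the midpoint, with a median offset of 10 bp, and 79.3% lay within 25 bp.

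The CTCF core is shown in 40-base stretches of high coding-exon peaks, each read on the strand of the motif with the core in capitals. They were chosen because in each the whole core lies in CDS and the match was counted as under footprints of both libraries. By that count, given above, the footprints need not cover the whole core.
Soga1, chr2:157030982-157031021, minus strand: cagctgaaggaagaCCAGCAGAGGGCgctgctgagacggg
Flot1, chr17:35829891-35829930, plus strand: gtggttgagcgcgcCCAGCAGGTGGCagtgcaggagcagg
Gcc1, chr6:28418673-28418712, minus strand: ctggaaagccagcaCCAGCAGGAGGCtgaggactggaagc
Smarcb1, chr10:75897489-75897528, plus strand: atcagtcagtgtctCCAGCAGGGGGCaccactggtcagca
Ankrd36, chr11:5629266-5629305, minus strand: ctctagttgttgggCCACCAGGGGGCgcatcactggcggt

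The core lay wholly in CDS in 173 of the matches. In Soga1 (9.0 and 10.8), in the lipid raft gene Flot1 (8.84 and 7.69) and in the Golgi coiled-coil gene Gcc1 (5.53 and 8.63) it read along the coding strand. In the chromatin remodeling gene Smarcb1 (6.45 and 8.53) and in Ankrd36 (7.38 and 7.37) it read on the opposite strand. Overall orientations were mixed, with 79 matches on the coding strand and 114 on the opposite one.

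The reading frame of the core was uneven, in peaks and outside them. On the coding strand, 46 of 73 matches wholly in CDS (63.0%, 50.9 to 74.0) began at the last position of a codon, against 54.7% of 479 matches in CDS windows outside peaks. On the opposite strand, 58 of 100 matches (58.0%, 47.7 to 67.8) had their first base along the coding strand at the middle position, against 54.8% of 438 outside peaks. The shares outside peaks fell within the intervals of those in peaks.

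Other motifs differed between the classes in both directions. The SP/KLF box GGGCGG was in 13.2% of the coding-exon peaks, against 7.86% of intron and 7.91% of intergenic peaks and 4.02% of CDS windows outside peaks. Within the quartile richest in GC it was in 20.5%, 19.6% and 21.0% of coding-exon, intron and intergenic peaks, so that there the classes overlapped in their intervals. The TFAP2 motif GCCNNNGGC (N is any base) was in 9.95% of coding-exon, 7.73% of intron and 7.16% of intergenic peaks over all GC contents, and in 14.9%, 14.1% and 14.4% in the quartile richest in GC, with overlapping intervals. In the next quartile the order was the opposite of that over all peaks, with TFAP2 in 4.29% (2.56 to 6.69) of coding-exon peaks, against 8.74% (8.19 to 9.33) of intron and 8.66% of intergenic peaks. The letters of these motifs can overlap in GC-rich sequence.

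The E-box CAGCTG was in 22.4% of the coding-exon peaks, against 15.46% of intron and 15.3% of intergenic peaks and 13.2% of CDS windows outside peaks. In the quartile richest in GC it was 25.0% (22.4 to 27.8), against 21.2% and 21.3%. The ETS motif CCGGAAG was in 3.93%, against 1.52%, 1.81% and 2.20% in the same order, and in the quartile richest in GC in 4.58% (3.40 to 6.03), against 2.70% and 3.40% of intron and intergenic peaks. In the second poorest quartile the interval held the other classes, with 2.33% (0.861 to 5.01), against 1.27% and 1.53%. In the second richest it was 3.57% (2.01 to 5.82), against 1.68% and 2.40%, and in the poorest 3.24% (1.20 to 6.93), against 0.707% and 0.574%. The NRF1 motif was in 1.10% of the coding-exon peaks, against 0.228% and 0.312% of intron and intergenic peaks (1.91%, 0.626% and 0.938% in the quartile richest in GC), and 16 of its 25 matches (64.0%) lay under footprints of both libraries. In the quartile second richest in GC the NRF1 motif was in 0% (0 to 0.874) of coding-exon peaks, against 0.155% and 0.301%. Sptbn4, Ankrd24, Synpo and Plvap were among the 21 peaks with it.

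Over all peaks AP-1 and FOX motifs were scarcer in coding exons, though not in each quartile of GC. The AP-1 motif TGANTCA was in 2.46% of the coding-exon peaks, against 5.93% of intron and 6.20% of intergenic peaks and 3.26% of CDS windows outside peaks. In the quartile richest in GC it was 1.24% (0.663 to 2.11), against 5.27% and 5.45%, and in the second poorest 7.39% (4.51 to 11.3), against 6.10% and 6.49%. The forkhead motif TGTTTNC was in 8.75%, against 13.2%, 13.6% and 8.77%, and in the quartile poorest in GC in 22.2% (16.4 to 28.8), against 16.6% and 17.1%. The GATA motif AGATAAG was in 0.314%, against 1.18%, 1.30% and 1.28%. The direct repeat CAAAGNNCA of HNF4, a factor of proximal tubule cells, was in 7.39%, against 7.77% and 7.01%, and in 3.83% of CDS windows outside peaks.

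Of the remaining motifs, the TEAD motif GGAATG was in 8.54% of the coding-exon peaks (7.32 to 9.88), against 10.8% of intron and 10.53% of intergenic peaks. The sequence AGGTCA, bound by many nuclear receptors, was in 15.45% of the coding-exon peaks (13.9 to 17.2), against 15.8% of intron and 14.6% of intergenic peaks. The MYC E-box CACGTG was in 4.61% (3.71 to 5.65), against 4.23% and 4.03%, so for both of these the interval of the coding-exon peaks held the values of the other classes. Few peaks of any class had the other motifs. The HNF1 motif was in 1 coding-exon peak (0.0524%, 0.00133 to 0.292), against 0.660% of intron and 0.547% of intergenic peaks, and the glucocorticoid receptor motif in 3 (0.157%, 0.0324 to 0.459), against 0.492% and 0.456%. The GRHL motif AACCGGTT was in 5 (0.262%, 0.0851 to 0.610), against 0.0681% and 0.0912%. The ERR motif TCAAGGTCA, which contains AGGTCA, was in 5 (0.262%), against 0.430% and 0.459%, the CREB motif TGACGTCA in 8 (0.419%), against 0.275% and 0.354%, and the NFI motif in 3 (0.157%), against 0.254% and 0.228%. The RFX motif was in 0 (0 to 0.193%), against 0.0812% and 0.0877%.

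**Figure D5:**
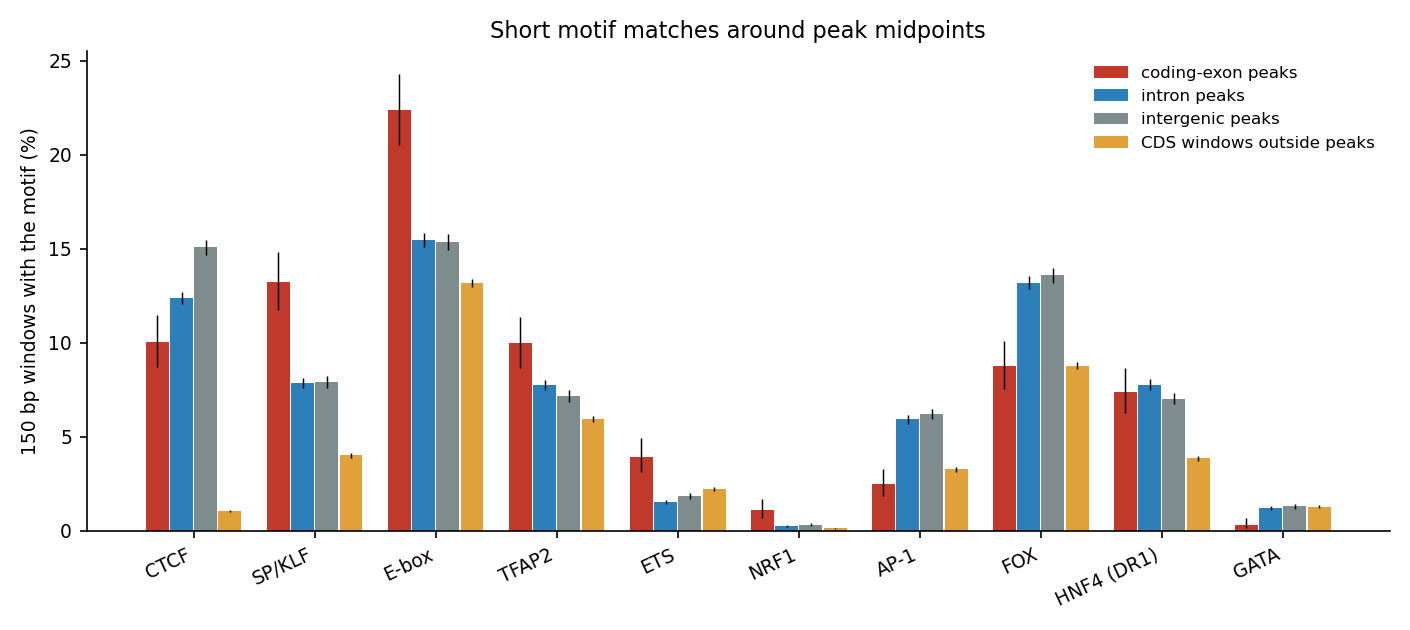
Share of 150 bp windows with at least 1 motif match (y axis, percent, bars from 0) in coding-exon, intron and intergenic peaks and in CDS windows outside peaks, with exact 95% binomial intervals as error bars. The CTCF core stands at 10.01% of coding-exon peaks and 1.03% of CDS windows outside peaks, and AP-1 and FOX are lower in coding-exon peaks than in intron and intergenic peaks over all GC contents.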

How the data were processed

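Each library came with a longer and a shorter, stricter peak list and a footprint list, on mm10 per the labels. The peak height is the signal value that the authors deposited for each peak, while its normalization, the aligner and the callers of peaks and footprints are not stated in any source used here. The step between low heights differs 1.72-fold between the libraries, absolute depth is unknown, and intervals therefore cover counting error over peaks only. The footprint list deposited by the authors holds 1 false discovery rate (q-value), 0.01, in every row, read as a threshold. The deposited per-base false discovery rates (q-values) are listed below 0.05 and give no result here.

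The height in replicate 2 is that of the highest overlapping peak. Overlap means 1 bp or more. Exon rank comes from the basic transcript with the longest CDS that holds the midpoint, and eligible CDS from the longest CDS of each gene. CpG, GC and motifs were read from GRCm38.p6 in 150 bp at the midpoint, and reference sequences are credited to RefSeq. CDS windows outside peaks are 150 bp tiles of eligible CDS that no peak of either library touches. A stretch of eligible CDS shorter than 150 bp gives no tile, while 30.8% of the coding-exon peaks lay in exons of up to 150 coding bp. The tiles are wholly CDS, whereas the median CDS share of the coding-exon peaks was 83.75%, so the 2 sets are not matched. Strain variants of CAST/EiJ were not used. Intervals are exact (Clopper-Pearson, 95%).

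The rule for named peaks takes the 10 highest by mean log2 height, the 12 genes with the most peaks, the 6 peaks with the most footprints, the 5 most unequal between libraries each way, the 3 lowest, 3 on either side of the distance limit, and up to 3 host genes per list; Aqp2 is named beyond this rule. Some host genes that the rule names are not reported here. The peaks, the 12 gene lists and the 20 motifs were chosen with earlier results of these data known. The rule was tested on simulated peaks. Python 3.11.15 with scipy was used.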

Additional observations from a re-analysis of the deposited data

How the results depend on the processing

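No paired analysis was possible because the series has 1 group of 2 libraries. Of the settings tried, RefSeq starts and all settings for the CTCF share and the library ratio were chosen after seeing the data. Some shifts below follow from the setting by construction. A height limit raises the median height, and a longer distance from a TSS lowers the share of shared peaks. For the other shifts the cause was not tested. Leaving out a library (its peaks taken alone, with no partner asked) gave 2295 to 3424 coding-exon peaks, 1.83% to 1.93% of the peaks, a median height of 0.561 to 0.735, a footprint share in the remaining library of 72.0% to 85.3%, 282 to 515 genes with several, 54.4% to 57.7% in its stricter list and 7.04% to 8.58% with the CTCF core; the higher counts, 3424 peaks and 515 genes, were those without replicate 1.

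With the stricter lists there were 1179 peaks (1.54% of shared ones), a median height of 1.47, footprints in both libraries in 89.7%, 92 genes with several, 94.1% of peaks with at least 50% CDS and the CTCF core in 13.1%. In the upper 50% of shared peaks by height there were 825 peaks (1.498%), a median of 2.10, footprints in 96.0%, 27.03% in last coding exons, 56 genes with several, 97.0% in the stricter lists, 91.5% with at least 50% CDS and the core in 15.6%. With starts of the comprehensive annotation added there were 1268 peaks (1.15%), 26.3% in last coding exons and 108 genes with several. With 50% reciprocal overlap the median height was 1.03, the footprint share 82.2% and the share in the stricter lists 67.9%. Beyond 1 kb from a TSS the share of shared peaks was 2.25% and the CpG ratio 0.440, and beyond 5 kb the shares were 1.34% of shared peaks and 18.6% in last coding exons, with a library ratio of 0.13 (log2). The share of shared peaks was 1.65% where 50% of the peak had to be CDS and 1.59% with RefSeq starts added. The other 76 combinations of result and setting moved by less than the interval or spread of the value reported, or within 1.5 times a count. The files give no read depth, so what depth limits could not be measured; footprint shares were lower in replicate 1 and at low heights.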
